A study of Sus scrofa with 16 samples.

Results

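Open chromatin was examined at the loci of 5 transcription factor genes, MEF2A, MEF2C, MEF2D, SRF and MYOCD, in ATAC-seq peak lists of pig tissues. The members were fixed by name. Their peaks were those of any of 8 deposited lists that overlapped a promoter (2.2 kb upstream to 500 bp downstream of a RefSeq transcription start) or the gene body with 10 kb on either side. The 5 genes, of 19560 protein-coding genes, held 376 of the 798988 listed peaks. Overlapping peaks of all lists were joined into 110 sites, of 201639 such sites at all protein-coding loci.

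The libraries came from female domestic crossbred pigs, which the study describes as full sibs of a Berkshire × Tibetan cross. Spleen, heart, lung, kidney, liver and skeletal muscle were taken from newborns (day 0 in the labels, a day old in the study), and liver also from suckling pigs of 28 days and adult pigs of 180 days. Per the study the 6 newborn tissues came from the same pair of piglets, so these tissues share animals. Nuclei were isolated from frozen whole tissue. Each of the 8 groups had 2 libraries, merged by the authors into 1 list. A list is therefore a single value per group, and no test between tissues was made, since choosing 2 of 6 tissues cannot give a p below 0.067. The spread that can be shown is that between the replicate columns of a list, which are not tied to the labels' replicate numbers.

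Myocyte enhancer factor 2 (MEF2) proteins bind an A/T-rich element in the enhancers of many striated muscle genes, and class IIa histone deacetylases hold them in check until calcium or kinase signals release them. Serum response factor (SRF) binds the CArG box of immediate-early genes and of genes for contractile and cytoskeletal proteins. Myocardin, the product of MYOCD, does not bind DNA by itself but joins SRF at CArG boxes, and it is known for its roles in heart and smooth muscle.

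Marker promoters were checked against the tissue labels first. In newborn muscle all 10 skeletal muscle markers had a promoter peak, against 7 in kidney, 5 in lung, 4 in newborn liver, 3 in heart and 2 in spleen. Heart had 8 of 9 matched cardiac markers, against 6 in kidney, 4 in lung and 3 each in muscle, newborn liver and spleen. Over all genes 68% had a promoter peak in heart, 61.5% in muscle, 75.2% in kidney, 73.7% in newborn liver, 70.6% in lung and 68.9% in spleen. MYH7, a myosin of heart and slow fibres, was the cardiac marker with none in heart, and MYH6 could not be matched. Smooth muscle markers had promoter peaks in every list (7 or 8 of 8). Of 6 endothelial markers, 5 had a promoter peak in heart and 2 in muscle, and of 6 fibroblast markers 4 in heart and 2 in muscle. All 6 B cell, 6 myeloid and 6 erythroid markers had promoter peaks in spleen, and newborn liver had 3, 6 and 4 of them. In bulk tissue, fewer cells of a type and less opening per cell cannot be told apart, and the part of cell mixture in the values below was not tested. The lists ran from 57126 peaks in muscle to 141689 in suckling liver, and they carry no read counts, so depth cannot be read from them. The study lists reads per library, which were not used here, and the part of depth in the calls was not tested. Because −log10 p depends on depth, the strength of a peak is given also as its percentile, the percentage of the peaks of its own list that lie below it in the same replicate column. A missing peak is a peak that was not called.

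The sequences printed here are those of the sites on which the heart and muscle comparison turned, taken from the RefSeq Sscrofa11.1 genome. They lie in introns or upstream of a start and are written along the strand of the gene. Capitals mark matches on either strand to 6 searched motifs, namely the MEF2 element, the CArG box, the E-box CAGCTG, the GATA site AGATAA, the NKX2 site CACTTNA and the TEAD site ACATTCC. The first 5 sequences are 300 bases around the strongest summit of an intronic site, with the sites of a gene numbered from its 5′ end.
MEF2A site 10, heart (chr1:138465899-138466198, plus strand): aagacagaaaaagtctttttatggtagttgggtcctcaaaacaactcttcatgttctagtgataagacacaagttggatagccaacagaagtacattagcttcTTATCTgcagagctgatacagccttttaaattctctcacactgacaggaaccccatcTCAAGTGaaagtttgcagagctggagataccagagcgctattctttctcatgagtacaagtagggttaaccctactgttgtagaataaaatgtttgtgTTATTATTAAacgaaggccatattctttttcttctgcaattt
MEF2C site 9, muscle and heart (chr2:96285451-96285750, minus strand): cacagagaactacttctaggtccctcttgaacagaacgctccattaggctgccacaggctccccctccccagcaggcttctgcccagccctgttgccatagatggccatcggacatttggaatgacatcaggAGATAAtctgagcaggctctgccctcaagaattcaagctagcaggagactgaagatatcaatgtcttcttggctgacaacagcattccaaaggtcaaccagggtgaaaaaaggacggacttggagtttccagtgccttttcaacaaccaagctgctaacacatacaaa
MEF2C site 40, muscle (chr2:96150160-96150459, minus strand): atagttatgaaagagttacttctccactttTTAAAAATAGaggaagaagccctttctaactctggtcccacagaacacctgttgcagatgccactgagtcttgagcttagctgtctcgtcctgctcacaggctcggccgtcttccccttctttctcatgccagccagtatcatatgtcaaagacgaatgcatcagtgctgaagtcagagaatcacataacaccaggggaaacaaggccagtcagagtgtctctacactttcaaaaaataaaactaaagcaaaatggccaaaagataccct
MEF2D site 17, heart and muscle (chr4:93603742-93604041, plus strand): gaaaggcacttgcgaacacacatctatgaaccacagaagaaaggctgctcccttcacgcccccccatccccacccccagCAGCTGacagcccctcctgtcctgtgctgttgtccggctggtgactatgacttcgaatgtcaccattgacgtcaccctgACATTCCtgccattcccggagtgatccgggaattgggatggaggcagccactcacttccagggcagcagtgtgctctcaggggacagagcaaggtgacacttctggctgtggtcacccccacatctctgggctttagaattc
MYOCD site 12, heart (chr12:56997287-56997586, plus strand): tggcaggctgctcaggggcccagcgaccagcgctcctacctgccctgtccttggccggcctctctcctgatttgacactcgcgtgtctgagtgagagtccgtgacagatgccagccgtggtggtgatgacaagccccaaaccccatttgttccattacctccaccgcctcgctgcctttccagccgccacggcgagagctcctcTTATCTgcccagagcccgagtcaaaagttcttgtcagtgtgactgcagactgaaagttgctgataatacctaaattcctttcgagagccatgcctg
MEF2A site 10 held a MEF2 element at bases 259 to 268, a GATA site and an NKX2 site, and MEF2C site 40 held a MEF2 element at bases 31 to 40. The stretch of site 40 lies under the muscle peak and outside the heart peak of that site. MEF2C site 9 and MYOCD site 12 each held a GATA site. MEF2D site 17 held an E-box at bases 80 to 85 and a TEAD site at bases 159 to 165. These matches are descriptions of letters and do not show binding.

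The next sequences belong to promoters that differed between lists or carried a CArG box, and they stop at or before the annotated start.
MYOCD promoter, the stretch under the heart summit (chr12:56931128-56931427, plus strand): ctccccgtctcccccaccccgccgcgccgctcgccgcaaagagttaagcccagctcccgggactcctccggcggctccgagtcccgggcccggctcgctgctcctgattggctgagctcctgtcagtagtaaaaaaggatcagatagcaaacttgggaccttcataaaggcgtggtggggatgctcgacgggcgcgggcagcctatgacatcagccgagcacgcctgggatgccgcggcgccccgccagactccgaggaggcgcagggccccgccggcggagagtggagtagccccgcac
SRF promoter, the bases before the start (chr7:38213000-38213299, plus strand): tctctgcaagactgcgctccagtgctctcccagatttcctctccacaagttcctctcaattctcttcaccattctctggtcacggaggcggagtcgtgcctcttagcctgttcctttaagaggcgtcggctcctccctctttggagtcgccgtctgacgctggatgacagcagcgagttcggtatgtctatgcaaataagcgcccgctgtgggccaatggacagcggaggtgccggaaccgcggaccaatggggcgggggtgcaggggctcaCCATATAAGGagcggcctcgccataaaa
MEF2C first start, under the muscle peak (chr2:96296928-96297077, minus strand): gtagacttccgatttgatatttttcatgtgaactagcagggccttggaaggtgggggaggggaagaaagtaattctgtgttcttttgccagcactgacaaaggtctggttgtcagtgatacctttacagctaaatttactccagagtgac
MEF2C first start, under the lung and liver peak (chr2:96297795-96298094, minus strand): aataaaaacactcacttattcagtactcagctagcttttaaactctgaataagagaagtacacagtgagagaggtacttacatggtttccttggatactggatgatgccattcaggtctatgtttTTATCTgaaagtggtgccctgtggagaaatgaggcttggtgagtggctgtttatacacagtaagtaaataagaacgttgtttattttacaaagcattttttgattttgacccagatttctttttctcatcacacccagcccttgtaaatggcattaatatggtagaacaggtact
The SRF stretch held a CArG box at bases 273 to 282, and a second match spanned the annotated start itself. None of the 6 motifs was found in the MYOCD stretch, whose GC content was 68.7%.

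Sites at the 5 loci were called more often in heart and muscle, and less often in kidney, than sites of protein-coding loci in general. Of the 110 sites, 53 (48.2%) were called in heart, where the share over all loci was 25.2%, and 41 (37.3%) in muscle, where it was 20.2%. In kidney 34 (30.9%) were called, against 43.4% over all loci. These pooled shares did not hold for every gene. Muscle had 23 of 45 sites at MEF2C, 13 of 25 at MEF2D and 3 of 7 at SRF. It had only 1 of 17 at MEF2A and 1 of 16 at MYOCD, and kidney had 5 of 7 at SRF. Shares in the remaining lists stood nearer to their background. They were 48.2% against 41% in newborn liver, 26.4% against 27.5% in lung, 30% against 29.2% in spleen, 50% against 47.2% in suckling liver and 45.5% against 38.8% in adult liver. With the IDR (irreproducible discovery rate, the authors' measure of agreement between replicates) held to 0.05 or lower, 48 sites were left at the 5 loci. Of these, 15 (31.2%) were called in heart, against 15.5% over all loci at that limit, 11 (22.9%) in muscle, against 18%, and 17 (35.4%) in kidney, against 43.1%. Newborn liver had 27.1% against 23.6%, lung 20.8% against 17.5%, spleen 27.1% against 22.3%, suckling liver 54.2% against 46.8% and adult liver 56.2% against 54.3%. The muscle share thus stood nearer to its background than without the limit.

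**Figure D1:**
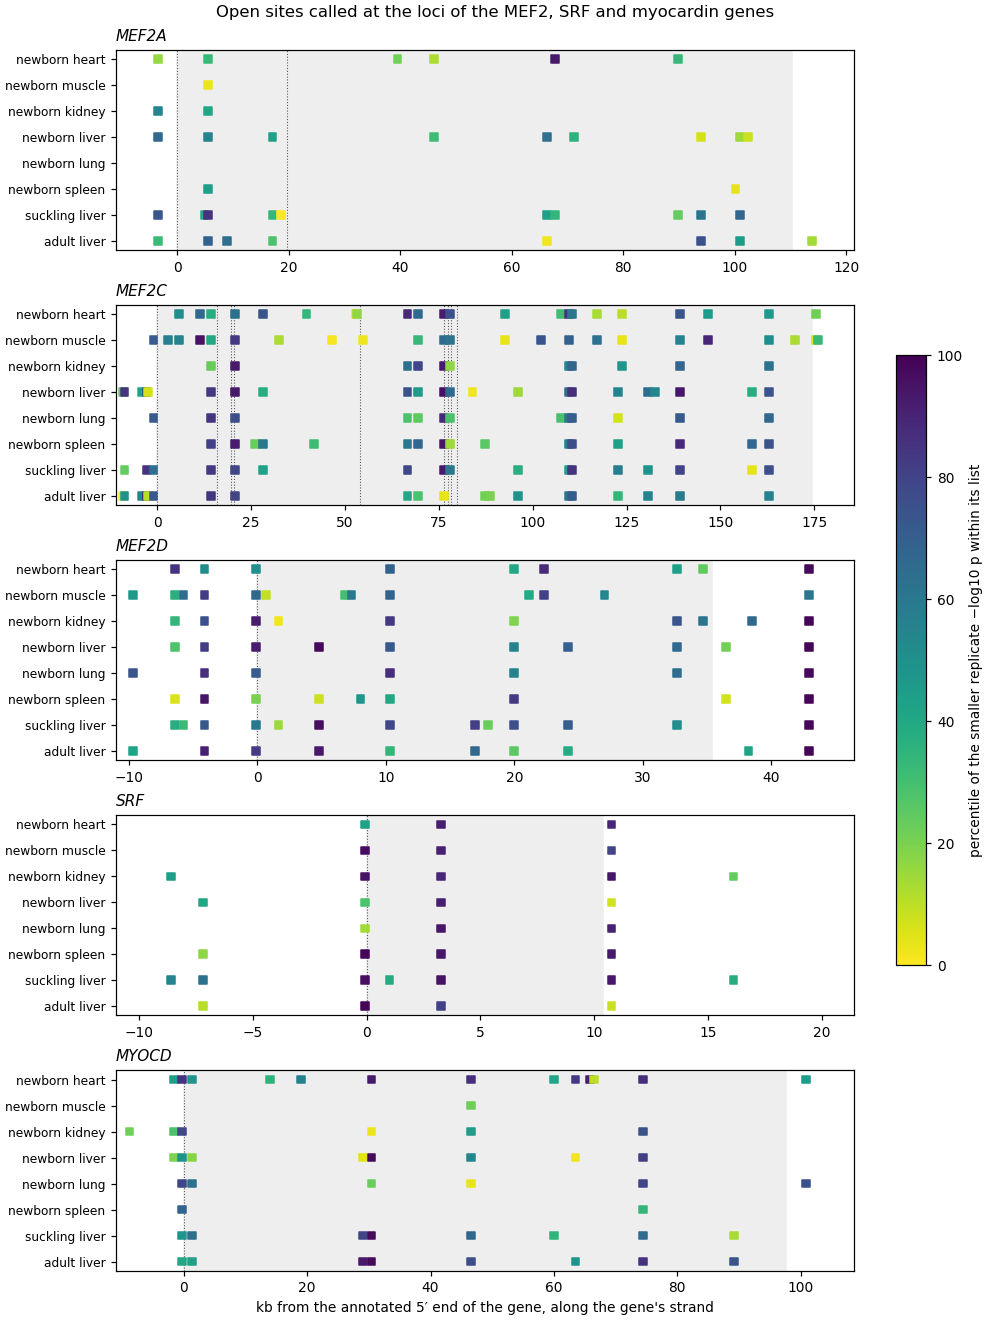
Sites called at each locus, by kb from the annotated 5′ end of the gene (horizontal axis) and by list (vertical axis). The grey band is the gene body, dotted lines are starts of alternative promoters, and the colour gives the percentile of the smaller replicate −log10 p within the list; MYOCD has 13 called sites in the heart row and 1 in the muscle row.

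In newborn tissues 31 of the 110 sites were called in heart, in muscle or in both and in none of the other 4 tissues. Of these, 7 (6.36%) were called in both, where the share over all loci was 1.15%, 11 (10%) in heart alone, against 4.15%, and 13 (11.8%) in muscle alone, against 4.22%. Sites in heart, muscle and other tissues made up 17.3%, against 11.8%, and those in heart and others but not muscle 14.5%, against 8.13%. Sites in muscle and other tissues but not heart made up 1.82%, against 3.01%, and sites in neither heart nor muscle 29.1%, against 52.6%. Intronic sites numbered 23 of the 31, and 3 were promoter sites. Of all 110 sites, 65 were intronic and 13 were promoter sites. Of the 201639 sites over all loci, 128006 were intronic and 24586 were promoter sites. The median width of the 31 was 285 bp, against 478.5 bp for all 110, and 6 had an IDR of 0.05 or lower in heart or muscle. With only such peaks in every list, 2 sites in heart and muscle alone were counted. They were MEF2D site 17, which is among the 7, and MEF2C site 32, which was called in all 8 lists without the limit. Without that limit, 4 were counted when each heart peak was taken by itself. Of the 31, 4 also had a peak in liver of suckling or adult pigs.

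The genes differed in how these sites fell. MEF2C held 6 of the 7 sites shared by heart and muscle alone, MEF2D held the other, and MEF2A, SRF and MYOCD held none. At least 1 such site occurred at 9.58% of protein-coding loci, and 6 or more at 19 loci (0.0971%), counts that were not adjusted for the size of a locus. MYOCD had 5 heart-only and no muscle-only sites, whereas MEF2D had 6 muscle-only and no heart-only sites. MEF2A had 3 heart-only sites and MEF2C had 3 heart-only and 7 muscle-only sites. With the IDR at 0.05 or lower in every list, MEF2D had 1 heart-only and no muscle-only site, so its excess of muscle-only sites was not kept. MYOCD had 3 and none, MEF2C none and 3, and MEF2A 1 and none. Several of these were shared sites whose peaks in other newborn tissues did not pass the limit. They were MEF2D site 2, MYOCD sites 9 and 11, and MEF2C sites 9 and 40. All 7 sites of SRF lay outside these classes, and 3 of them were called in every list, against 8.14% of sites over all loci.

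**Figure D2:**
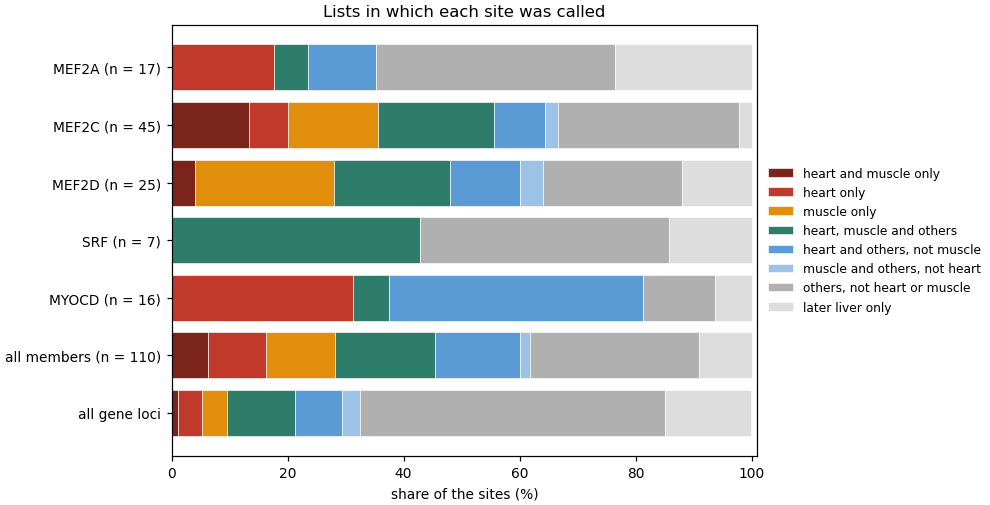
Share of the sites of each gene (horizontal axis, %) by the newborn lists in which they were called, with all 110 sites and the sites of all protein-coding loci as the lower bars. Later liver means called in suckling or adult liver and in no newborn list. The heart and muscle classes at the left take up more of the MEF2A, MEF2C, MEF2D and MYOCD bars than of the bar of all loci, and none of the SRF bar.

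MEF2C, on the minus strand of chromosome 2 (96122407 to 96296927), is a MEF2 gene of early heart and muscle development and of several blood and neural lineages, and RefSeq gave it 49 transcripts from 9 alternative promoters. These 9 windows were not independent, because starts 3 and 4 shared a site, as did starts 6, 7 and 8 and starts 7, 8 and 9. Peaks were listed in all 8 lists at starts 2, 3, 4, 6, 7 and 8. Over all protein-coding genes, 58.5% of alternative promoters had a peak in heart, 52% in muscle and 45.8% in every list. Start 9 had a peak in 7 lists, all but adult liver, with summits 1935 to 2076 bp upstream.

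The first and most upstream start of MEF2C, used by 13 transcripts, separated heart from muscle. Its window had a peak in muscle, lung, suckling liver and adult liver, and none was called in heart, kidney, spleen or newborn liver. A peak in muscle and not in heart was found at 2.31% of alternative promoters. In muscle the −log10 p was 16.2 in one replicate column and 48.4 in the other (65.6th and 86.1st percentile), with an IDR of 0.0525. Its summit lay 8 bp downstream of the start. In lung the values were 8.99 and 48.8, in suckling liver 9.32 and 13.7, and in adult liver 50.6 and 44.5, with summits 1006 to 1018 bp upstream of the start. The stronger peak of muscle thus had its summit at the start, and that of the other lists about 1 kb before it, in the 2 stretches printed above. Muscle also had a weak peak with its summit 977 bp upstream (6.13 and 5.01, IDR of 0.631), and adult liver a weaker one with its summit 15 bp upstream (8.14 and 16.6, IDR of 0.135).

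Start 4, used by 22 transcripts, had a peak in every list. Kidney had −log10 p values of 33.7 and 65.3 (92.6th and 95.4th percentile), muscle 38.8 and 29.7 (84.7th and 74.7th), and heart 9.29 and 9.17 (49.8th and 45.8th). By the strongest peak of each list in this window, heart stood lowest of the 8 lists, below both replicates of every other list. In kidney, both liver lists of newborn and suckling pigs, lung and spleen the summit lay within 27 bp of the start, whereas it lay 188 bp upstream in heart, 226 bp in adult liver and 660 bp in muscle. The muscle peak, the strongest of 3 in the window, lay over start 3, with its summit 168 bp downstream of that start. It did not reach start 4, so its values and those of kidney do not belong to the same start. Start 2 had a peak in every list with summits 1112 to 1633 bp upstream, and a divergent lncRNA, LOC102159394, starts on the opposite strand at 96281234, between the start and those summits. This lncRNA runs on across the first start of MEF2C. At the site shared by starts 6, 7 and 8 the heart summit lay 176, 1188 and 1861 bp upstream of them. There heart reached −log10 p values of 38.6 and 36.4 (90.5th and 88.8th percentile) and muscle 19.2 and 13.2 (70.0th and 47.0th). The ranges of heart and muscle did not overlap at that site. At site 24, shared by starts 7, 8 and 9, they did overlap, with heart at the 64.1st and 61.5th percentile and muscle at the 64.0th and 41.2nd. Start 5 was marked in heart alone, and weakly, with −log10 p values of 7.49 and 4.56 and an IDR of 0.676.

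**Figure D3:**
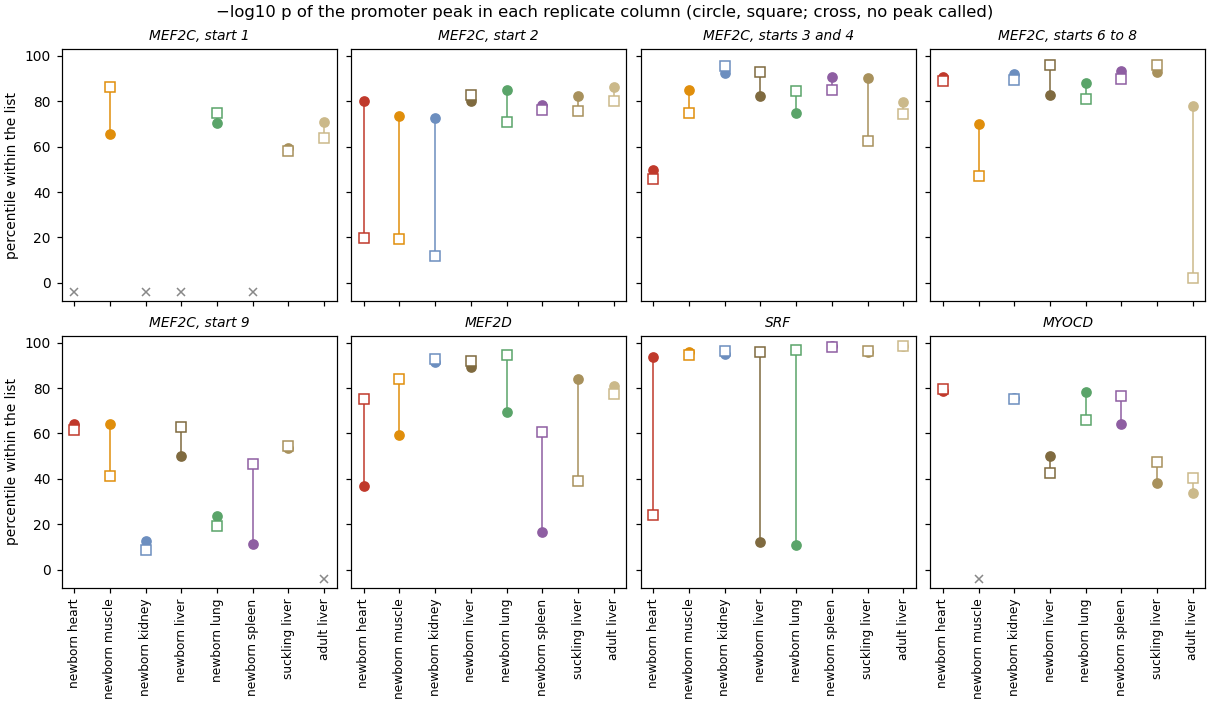
Percentile of the promoter peak within its list (vertical axis) for each list (horizontal axis), with a circle and a square for the replicate columns and a cross where no peak was called. At the first MEF2C start heart has a cross and muscle lies between 65.6 and 86.1, at MYOCD muscle has the only cross, and at SRF the replicates of heart, newborn liver and lung lie far apart.

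Among the intronic sites of MEF2C, 5 were called in heart and muscle alone, against 1.25% of intronic sites over all loci, and the sixth such site lay in the downstream flank. The strongest, site 9 in intron 1 (chr2:96285116-96285854), had −log10 p values of 65.7 and 83.0 in muscle (93.5th and 94.6th percentile) with an IDR of 0.00135. In heart its values were 9.97 and 15.1 (53.0th and 67.4th percentile). Site 9 also lies within LOC102159394, the lncRNA on the opposite strand, as does site 8 in the same intron. By position these 2 sites cannot be assigned to MEF2C alone. Site 40 in intron 7 (chr2:96149596-96150854) had values of 43.5 and 74.0 in muscle (86.9th and 93.3rd percentile) and 6.59 and 6.68 in heart (32.8th and 27.7th). At site 9 the summits of both tissues lay 61 bp apart, each muscle replicate stood above each heart replicate in percentile, and only the muscle peak had an IDR below 0.05. At site 40 the heart peak, 189 bp wide with an IDR of 0.676, lay within the 1259 bp muscle peak but with its summit 525 bp from the muscle summit, so these are not values of 1 shared summit. Of the 6 sites, 3 had the muscle summit inside the heart peak. Site 30 in intron 4 (chr2:96194499-96195070) was called in muscle alone, at 17.6 and 32.7 (67.8th and 77.2nd percentile). The 3 heart-only sites of MEF2C all had an IDR above 0.05, as did 6 of the 7 muscle-only sites.

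Other intronic sites of MEF2C were shared more widely. Site 21 in intron 2, singled out after its values were seen, was called in every list but muscle and stood highest in heart, with −log10 p values of 26.3 and 32.3 (83.8th and 86.5th percentile). Suckling liver followed with 15.8 and 22.8 (76.9th and 73.7th percentile), and newborn liver had 26.6 and 15.8 (51.6th and 72.6th). The site called in all 8 lists with the highest percentile was site 23, which lies in the promoter windows of starts 6 to 8. In newborn liver it reached 124 and 60.0 (82.7th and 95.8th percentile), but in adult liver 78.3 in one column and 4.02 in the other.

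Upstream of its first start MEF2C carried sites called in liver and in no other tissue. All 5 sites of the upstream flank were called in newborn liver, 2 of them also in suckling liver and all 5 in adult liver. They also lie within LOC102159394, the lncRNA on the opposite strand, so they cannot be assigned to MEF2C by position. The strongest, site 4 (chr2:96299587-96300197), singled out after its values were seen, lay 2.88 kb upstream of the first start. It had −log10 p values of 165 and 21.6 in newborn liver, 21.3 and 44.7 in suckling liver and 183 and 155 in adult liver, all between the 80.8th and the 92.2nd percentile.

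MEF2D (chromosome 4, 93581563 to 93616980, plus strand), a broadly expressed MEF2 gene with a muscle splice form, had 1 promoter cluster with a peak in every list. Heart and muscle did not lead there. The −log10 p values were 7.17 and 19.6 in heart (37.0th and 75.4th percentile), 13.1 and 43.5 in muscle (59.4th and 83.8th), 31.0 and 50.0 in kidney (91.5th and 92.6th) and 179 and 40.5 in newborn liver (89.1st and 91.7th). Lung gave 8.85 and 157, and spleen 4.83 and 21.4. Kidney and newborn liver lay above both replicates of heart and of muscle in percentile.

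Within MEF2D, site 17 in intron 6 (chr4:93603650-93604341) was called in heart and muscle and in no other list. Its −log10 p values were 23.9 and 25.8 in heart (81.8th and 82.1st percentile) and 25.8 and 31.2 in muscle (76.6th and 76.0th). It was the only site of the 5 genes, among those called in heart and muscle alone, with an IDR of 0.05 or lower in both (0.0166 and 0.0115). The muscle-only sites were weaker. Site 3, 5.74 kb upstream, had values of 13.1 and 12.6 in muscle and also a peak in suckling liver, and site 10 in intron 1 had 10.6 and 20.2. None of the 6 muscle-only sites had an IDR of 0.05 or lower in muscle. Site 3 lay within the promoter window of a lncRNA, LOC106510129, on the opposite strand.

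MEF2D also held sites that were strong outside heart and muscle. Site 8 in intron 1 (chr4:93586113-93586516), singled out after its values were seen, was called in liver at all 3 ages and in spleen. Its −log10 p values were 235 and 78.1 in newborn liver, 54.4 and 87.1 in suckling liver and 169 and 197 in adult liver, all between the 90.9th and the 97.7th percentile, and 4.07 and 8.74 in spleen. Site 25 downstream of the gene (chr4:93623205-93625244) was called in all 8 lists and lay at or above the 95.8th percentile in both replicates of every list except muscle. In muscle the replicates gave 10.7 and 112 (52.8th and 97.5th percentile). That site lies within LOC102167529, a lncRNA on the opposite strand, and overlaps its promoter window, so it cannot be assigned to MEF2D by position.

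SRF (chromosome 7, 38213300 to 38223686, plus strand) had 1 annotated transcript, and its promoter was marked in every list. In spleen the −log10 p values were 179 and 279 (98.3rd and 98.2nd percentile) and in adult liver 301 and 313 (98.5th in both). Muscle had 80.0 and 82.6 (96.0th and 94.6th percentile), and kidney 41.1 and 73.4 (94.8th and 96.3rd). In 3 lists the replicates stood far apart. They were 48.5 and 6.32 in heart (93.5th and 24.2nd percentile), 5.22 and 61.1 in newborn liver (12.4th and 96.0th) and 4.03 and 199 in lung (10.9th and 96.9th). The higher replicate of each of these lists lay near the values of the other tissues, so a lower SRF promoter in heart was not shown.

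Such gaps also occurred at other sites, though in a smaller part of the peaks than at the SRF promoter. Over the 5 loci, 20 of 348 peaks (5.75%), the strongest of each site and list, had replicate percentiles more than 50 points apart. Over all lists 6.52% of peaks did, with every listed peak counted. In those 20 the matched replicate intervals overlapped by a median of 100% of the shorter interval. The median difference between replicate percentiles at the 5 loci was 9.04 points.

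The other sites shared by every list at SRF were site 5 (chr7:38215932-38216783), which overlaps an exon, and site 6 (chr7:38223397-38224705). Site 5 had an IDR below 0.05 in all 8 lists, with −log10 p values of 33.9 and 44.6 in heart (88.5th and 92.1st percentile) and 48.3 and 67.9 in muscle (88.7th and 92.0th). Apart from adult liver, at the 77.3rd and 86.0th percentile, every replicate of that site lay between the 86.7th and the 94.7th. Heart and muscle did not stand apart there. Site 6 overlaps the last exon of SRF and the promoter of CUL9, the next gene downstream, with its summit 24 bp from the CUL9 start.

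MYOCD (chromosome 12, 56931628 to 57029258, plus strand) was marked in heart and almost not in skeletal muscle. Of its 16 sites, 13 were called in heart, 8 each in newborn, suckling and adult liver, 6 in kidney, 6 in lung, 2 in spleen and 1 in muscle. Its promoter had a peak in every list but muscle, and a peak in heart and not in muscle was found at 8.8% of alternative promoters. At the promoter the −log10 p values were 21.1 and 23.0 in heart (78.8th and 79.5th percentile), 14.9 and 20.2 in kidney (75.8th and 75.1st) and 11.6 and 36.2 in lung (78.1st and 66.1st). Spleen had 12.2 and 35.8, newborn liver 25.1 and 7.58, suckling liver 6.41 and 10.2, and adult liver 10.4 and 18.9, and both later livers lay under the 50th percentile. Lung overlapped with kidney and spleen, heart lay just above all 3, and the livers of all 3 ages lay below. The site also spans the start of LOC110256113, a lncRNA on the opposite strand.

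Sites within the gene body set heart apart more clearly. Site 12 in intron 5 (chr12:56997157-56997911) was called in heart and in no other list, with −log10 p values of 35.9 and 39.6 (89.4th and 90.2nd percentile) and an IDR of 0.00562. The next heart-only sites were weak. Site 6 in intron 1 had 7.93 and 15.1, and site 10 in intron 5 had 6.13 and 8.41 with a peak also in suckling liver. Site 11 in the same intron, singled out after its values were seen, gave 18.3 and 41.2 in heart (74.9th and 90.9th percentile), 3.33 and 11.3 in newborn liver, and 18.4 and 14.0 in adult liver.

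Heart shared its other strong MYOCD sites with liver and in part with more tissues. Site 14, with −log10 p values of 22.8 and 33.8 in heart (80.7th and 87.4th percentile), was called in every list but muscle, and kidney (12.6 and 17.1), lung (11.7 and 48.4) and adult liver (99.6 and 113) also had an IDR below 0.05 there. At site 8 in intron 1 (chr12:56961621-56962455) the −log10 p values were 39.2 and 50.3 in heart (90.8th and 93.8th percentile), 146 and 71.1 in newborn liver (85.6th and 97.1st), 93.2 and 60.7 in suckling liver (99.1st and 92.8th) and 258 and 239 in adult liver (97.1st and 96.2nd). Kidney and lung had weak peaks there, at or under the 23.4th percentile, and muscle and spleen none. Site 7, nearby in the same intron, was a liver site whose percentiles were 12.5 and 1.97 at birth, 79.6 and 62.9 at the suckling stage and 90.9 and 92.4 in adults. The replicates of the 3 ages did not overlap. The single muscle peak of the locus, at site 9 in intron 2, had −log10 p values of 5.10 and 25.1 (16.3rd and 69.9th percentile) and an IDR of 0.427, against 30.7 and 21.8 in heart. Sites 7, 8, 9, 11 and 14 fall outside the naming rule and were chosen after their values were seen.

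MEF2A (chromosome 1, 138398270 to 138508639, plus strand), a MEF2 gene expressed in heart, muscle and brain, had few peaks at its annotated starts. The annotated first start had no peak in any list, as had 21.8% of alternative promoters. The second start had 1 weak peak, in suckling liver, with −log10 p values of 2.97 and 5.96 and an IDR of 0.631. The RefSeq record of the transcript with the first start is marked as partial, so its true 5′ end may lie elsewhere and the promoter result covers only the annotated starts. Within 200 kb upstream, 1 site was called in all 8 lists. It lay 57.2 kb before the annotated gene (chr1:138340226-138342652), outside the promoter window of any annotated protein-coding gene, and was chosen after its values were seen. Its −log10 p values were 66.7 and 44.1 in heart and 58.9 and 53.9 in muscle, 44.1 and 61.7 in suckling liver and 12.8 and 13.8 in kidney. The replicates stood far apart in newborn liver (269 and 10.7), lung (15.7 and 162), spleen (125 and 7.87) and adult liver (5.09 and 227), so heart and muscle did not stand apart from the rest. Whether it is a start of MEF2A was not tested.

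In the body of MEF2A, site 10 in intron 2 (chr1:138465578-138466643) was called in heart and in no other newborn tissue. In heart its −log10 p values were 39.2 and 42.1 (90.8th and 91.2nd percentile), with an IDR of 0.00457, and suckling liver had a weaker peak of 5.22 and 14.3 (24.9th and 59.2nd). The other heart-only sites of the gene, site 12 in intron 6 and site 7 in intron 2, had −log10 p values of 4.79 to 7.23 in heart and an IDR of 0.676. Muscle had 1 called site at the locus, site 3 in intron 1, with values of 5.10 and 3.83. That site was strongest in suckling liver (22.2 and 22.3) and adult liver (37.3 and 45.5). Site 4 in intron 1 was listed in adult liver alone, with 58.8 and 27.3.

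**Figure D4:**
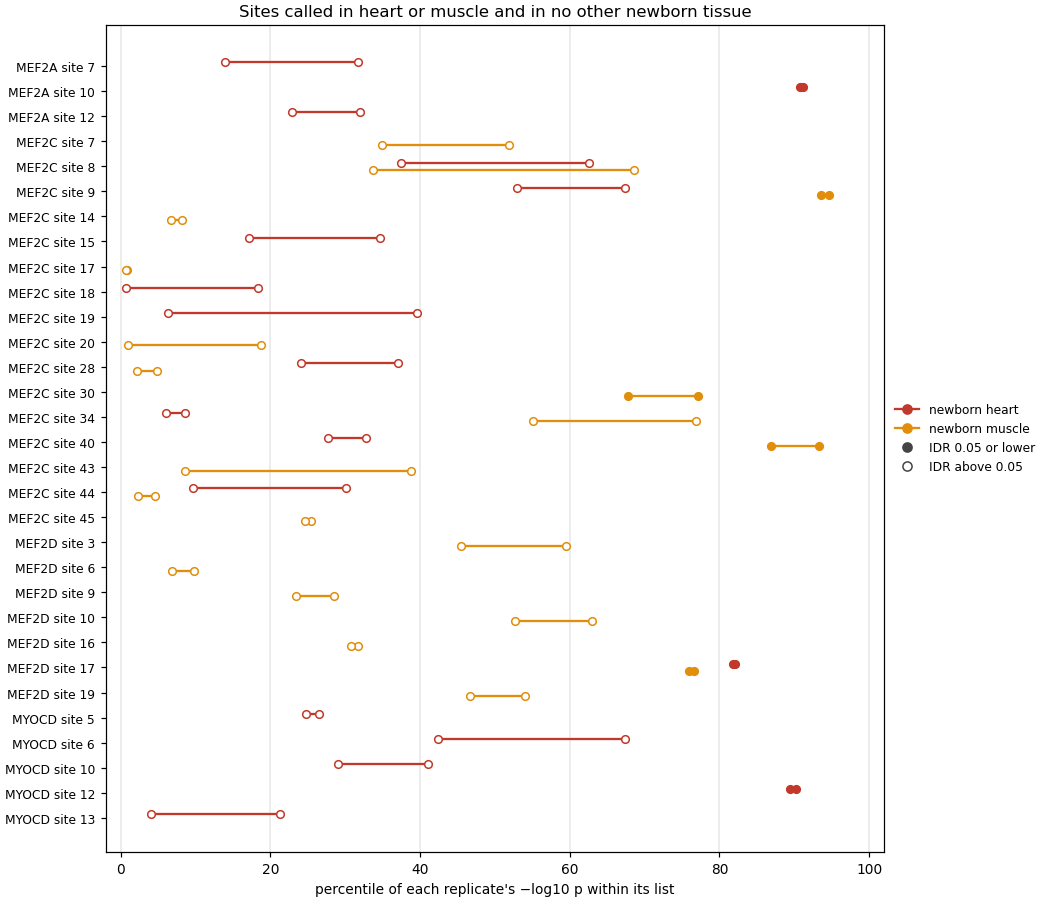
The 31 sites called in heart or muscle and in no other newborn tissue (vertical axis), with the percentile of each replicate within its list (horizontal axis), heart in red and muscle in orange, filled where the IDR was 0.05 or lower. MEF2A site 10, MYOCD site 12 and MEF2D site 17 carry filled heart points at 81.8 or above, and MEF2C sites 9, 30 and 40 and MEF2D site 17 filled muscle points at 67.8 or above.

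The share of each locus that lay in peaks, divided by the mean share of all protein-coding loci in the same list, gave a level per gene and tissue. This ratio was 4.71 in heart and 6.02 in muscle for MEF2D, 1.95 and 2.90 for MEF2C, 2.53 and 3.10 for SRF, 2.51 and 0.342 for MYOCD, and 0.735 and 0.0599 for MEF2A. Shorter loci, such as that of SRF, hold proportionally more promoter and exon sequence, so ratios were read across lists within a gene. For the spread, every list was cut to its 57126 highest peaks by each replicate column in turn. The muscle list already had that length, so its value has no spread in this measure. Limiting all lists to an IDR of 0.05 or lower turned the heart ratio of MEF2C to 0.943, below the mean of all loci, raised that of SRF to 4.41 in heart and 6.60 in muscle, and lowered that of MEF2D in muscle to 2.92, below its 5.95 in heart.

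For MEF2C muscle stood first. Heart, at 1.61 to 2.2, was followed by spleen at 1.53 to 1.65, newborn liver at 1.47 to 1.59 and adult liver at 1.18 to 1.47, and from heart downwards each list's range met that of the next. Suckling liver (1.29 to 1.36), lung (1.13 to 1.29) and kidney (0.958 to 1.20) came last. For MEF2D muscle stood first at 6.02 and heart second at 5.13 to 5.55, above kidney at 3.39 to 4.62, lung at 3.52 to 3.71, suckling liver at 2.88 to 3.80, newborn liver at 2.65 to 3.51, spleen at 2.69 to 3.43 and adult liver at 2.66 to 2.73. The ranges of neighbours met from kidney downwards.

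For MYOCD heart stood first at 2.70 to 2.92, above adult liver at 1.11 to 1.27. Lung (0.736 to 0.921), suckling liver (0.563 to 0.855), newborn liver (0.530 to 0.772) and kidney (0.320 to 0.784) each met the next in order, down to muscle (0.342), and spleen lay below muscle at 0.158 to 0.256. For SRF heart and muscle were in the middle or lower part of the order. Spleen, at 3.91 to 4.72, and kidney, at 3.9 to 4.003, came first and met, followed by suckling liver at 3.43 to 3.45, lung at 2.69 to 3.53, muscle at 3.10, heart at 2.84 to 2.98, adult liver at 1.85 to 3.12 and newborn liver at 2.22 to 2.27. Heart met adult liver and lay below muscle. For MEF2A adult liver led at 0.773 to 0.998, then heart at 0.688 to 0.723, suckling liver at 0.581 to 0.656 and newborn liver at 0.268 to 0.471. Spleen (0.147 to 0.154), kidney (0 to 0.147) and muscle (0.0599) stood lower, and lung had no peak at the locus.

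**Figure D5:**
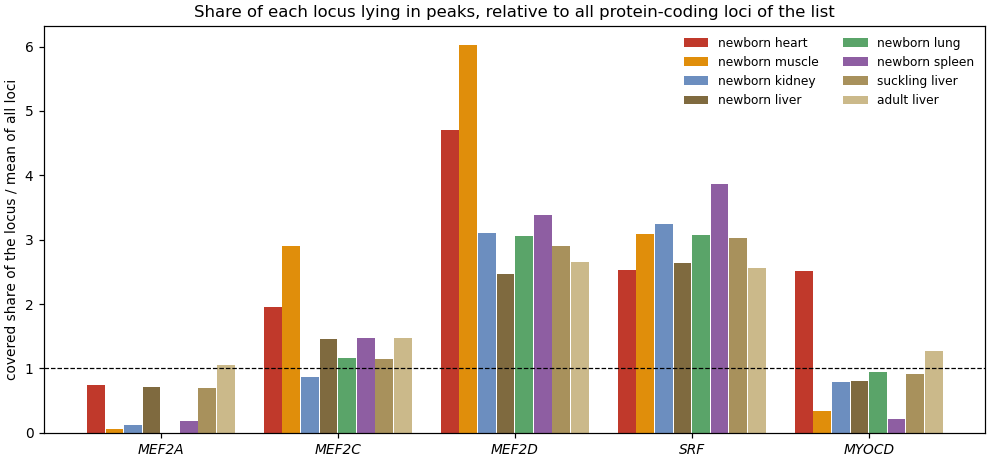
Covered share of each locus divided by the mean of all protein-coding loci in the same list (vertical axis, deposited lists), by gene (horizontal axis) and list (bars); the dashed line is the mean of all loci, and there are no error bars because each list is 1 value. Muscle and heart bars lead at MEF2D (6.02 and 4.71) and MEF2C (2.90 and 1.95), heart alone leads at MYOCD (2.51), and the SRF bars lie between 2.53 and 3.86.

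Across liver ages, 36 of the 110 sites (32.7%) were called at all 3 ages, against 25.6% over all loci. At birth only there were 7 (6.36%, against 6.8%), at the suckling stage only 11 (10%, against 11.9%) and in adults only 6 (5.45%, against 7.31%). For MYOCD 6 of 16 sites were called at all 3 ages, for MEF2A 6 of 17, for MEF2D 7 of 25 and for SRF 4 of 7. MEF2C had 13 of 45 sites at all 3 ages and 20 in no liver list. Sites in later liver and in no newborn list made up 9.09% of the 110, against 14.9% over all loci.

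Genes whose covered share followed the members most closely over the 8 lists were named by Pearson's r among 6600 genes, as a description over 8 values with no test. They were TDH (r = 0.982) for MEF2A, USP25 (0.983), TFEB and MYPN for MEF2C, RAMP1 (0.994), MAPKAPK3 and ZEB2 for MEF2D, MBD2 (0.976) and IQCE for SRF, and RASGRF2 (0.945), COG5 and MMP15 for MYOCD. SLC22A18 and ATP8B1 also followed MEF2A, and LOC110255210 followed SRF. All values of a gene come from the same 8 lists.

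Genes that act with MEF2 and SRF were open at their promoters in most tissues, while targets of MEF2 were open mainly in heart and muscle. Of 20 partners and regulators, such as the MEF2 repressors HDAC4, HDAC5, HDAC7 and HDAC9 and the myocardin-related coactivators MKL1 and MKL2, all 20 had a promoter peak in heart and in muscle, and 17 to 19 in each other newborn list. Over all genes these shares were 68% in heart, 61.5% in muscle and 68.9% to 75.2% in the others. ABRA, an activator of myocardin-related factors, was the partner open in heart and muscle and in none of the other 4 newborn tissues.

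Of 15 SRF targets, 13 had a promoter peak in heart, 14 in muscle, 15 in kidney and in lung, and 12 in spleen and newborn liver. ACTG2, a smooth muscle actin, had a peak in kidney and lung and none in heart or muscle, as had 30.4% of all genes. Of 13 matched MEF2 targets, 12 were open in heart and 13 in muscle, against 7 in newborn liver and lung, 6 in kidney and 4 in spleen. MYOZ2 (a Z-disc protein), KLHL40, TTN (titin) and CSRP3 (a muscle LIM protein) were open in heart and muscle and in none of the other 4 newborn tissues, and MYL2, a myosin light chain, in muscle alone. With ABRA these were 6 of 48 matched genes, where the share over all genes was 0.946%. The count was 10 with an IDR limit of 0.05 and 11 with lists of equal length. No share over all genes was computed at these settings, so the higher counts are not read as a result about these genes. NR4A1 and MB could not be matched. The lists hold known muscle genes, so their counts are a check on the tissues rather than evidence on the 5 factors.

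MEF2 elements were found in the 300 bases around the strongest summit of 8 of the 110 sites, where 3.73% of all sites had a match. Of the 31 sites in heart or muscle and in no other newborn tissue, 4 had a MEF2 element, against 9.89% of such sites over all loci. They were MEF2A site 10 and MEF2C sites 14, 19 and 40. CArG boxes were found at 4 sites (1.68% of all sites), namely the SRF promoter, MEF2A site 7, MEF2D site 25 and MYOCD site 1. The E-box was found at 28 of 110 sites (24.8% of all sites), the GATA site at 25 (13.8%), the NKX2 site at 12 (14.2%) and the TEAD site at 6 (4.94%). Among the 31 sites the TEAD site was found at 4, against 6.01%, and they included MEF2D site 17. A shorter window of 200 bases left 3 sites with a MEF2 element and 1 with a CArG box. Of the 31 sites it left 1, MEF2C site 19, against 7.86% over all loci, and the elements printed above for MEF2A site 10 and MEF2C site 40 lie outside it.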

How the data were processed

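ATAC-seq was measured in 16 libraries, 2 in each of 8 groups assigned from the labels. Per the methods of the study and the submitters' processing notes, the authors aligned reads to Sscrofa11.1 with Bowtie2, filtered and deduplicated them with SAMtools (1.3.1), called peaks per replicate with MACS2 and merged replicates by IDR. The deposited lists give each peak's position, its −log10 p in each replicate and in the smaller of both, and a score, which is the scaled IDR (540 stands for 0.05). The lists were not filtered on IDR. Peaks on unplaced scaffolds were left out of the sites. A shift for the transposase combined with a whole-fragment format, as the methods state, can move summits.

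Sites were joined from peaks overlapping by 1 bp, and RefSeq starts within 500 bp formed 1 promoter. Features were taken in the order promoter, exon, intron, flank. Named sites were, per gene, the 3 strongest in heart or muscle and no other newborn tissue, the strongest in all 8 lists, and any in 1 other list with an IDR of 0.05 or lower. Members and gene lists were chosen with earlier results of these data known. Python (3.11.15) and pandas (2.3.3) were used, and the overlap steps were tested on simulated data. Alternatives were an IDR limit, equal list lengths, each replicate column alone, other windows and no flank. The lists carry no read counts, the reads per library that the study lists were not used, and no interval or limit of detection was computed.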

Additional observations from a re-analysis of the deposited data

How the results depend on the processing

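Each list merges 2 libraries, so no tissue difference here has an error of its own, and the part of depth in the calls was not tested. Of 199 values recomputed, 135 moved little (counts within 1.5 times, covered shares within the spread of the replicate columns) and 64 more, none of them with a test. The muscle list already held 57126 peaks. Its called sites, promoters, pathway genes and covered shares therefore could not move under equal list lengths or either replicate column alone. These unmoved values are counted in the 135, so the tally does not measure how stable the results are. No paired analysis was possible because the replicates are merged and no test was made. Once sites are joined, asking for a longer overlap cannot change whether a site is called, since each peak lies within its site. Joining the sites at a longer overlap could split some of them and was not tried. At MEF2C site 44 the heart and muscle peaks overlap by 48 bp. Leaving out the flanks or narrowing the promoter to 500 bp on each side changed no count by more than 1.5 times.

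With the IDR at 0.05 or lower, called sites fell to 15 in heart, 11 in muscle, 17 in kidney, 13 in newborn liver, 10 in lung, 13 in spleen, 26 in suckling liver and 27 in adult liver. The count of sites in heart and muscle alone fell from 7 to 2, and of those 2, MEF2C site 32 was not among the 7. Alternative promoters with a peak fell to 4 in heart and 3 in muscle, and pathway genes from 45 to 22 in heart and from 47 to 26 in muscle. Pathway genes in heart or muscle and in none of the other 4 newborn tissues rose from 6 to 10. For these promoter counts no share over all genes was computed at that limit. Covered-share ratios in heart became 0.766 for MEF2A, 0.943 for MEF2C, 5.95 for MEF2D, 4.41 for SRF and 3.76 for MYOCD, and in muscle 0, 2.19, 2.92, 6.60 and 0. MEF2C in heart thus fell below the mean of all loci, and the cause was not tested.

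With 57126 top peaks in every list, called sites fell to 19 in kidney, 29 in newborn liver, 30 in suckling liver and 28 in adult liver, by construction, because fewer peaks entered. Pathway genes in heart or muscle and in none of the other 4 rose to 11, again with no share over all genes at that setting. Ratios in heart were 0.574 for MEF2A, 5.49 for MEF2D, 2.95 for SRF and 2.89 for MYOCD. Taking each heart peak by itself, with other lists called by their summits, left 4 sites in heart and muscle alone. A window of 200 bp left 3 MEF2 elements, 1 CArG box and 5 NKX2 sites.

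Ranking 57126 peaks per list by either replicate column alone gave between 19 and 23 called sites in kidney. Newborn liver had between 23 and 28, liver of sucklings between 26 and 27, and liver of adults between 28 and 29. Heart kept 42 to 49, and 7 to 9 sites were in heart and muscle alone. Ratios in heart ran from 0.688 to 0.723 for MEF2A, 5.13 to 5.55 for MEF2D, 2.84 to 2.98 for SRF and 2.70 to 2.92 for MYOCD.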
